A study of Mus musculus with 16 samples.

Results

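Collagens are proteins of the extracellular matrix whose chains wind around each other into stiff helical rods. Fibrillar collagens form the load-bearing fibres of connective tissue and scars, type IV collagens form the network of basement membranes, and other classes decorate, anchor or link these structures. Healthy brain tissue holds little fibrous collagen, and its collagen lies mainly in the basement membranes of vessels and in the meninges. The collagen genes described here are the protein-coding genes of the deposited count table whose symbol consists of Col, a number, the letter a and a second number. This gave 42 of the 19457 genes in the table, and Col9a1 and Col10a1 are not analysed here. By structure they comprise 11 fibrillar genes, 6 genes of basement membrane type IV, 6 of the beaded filament type VI, 2 of the short chain type VIII, 8 fibril-associated genes, 2 multiplexins, 4 transmembrane genes and 3 others.

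RNA from mouse striatum was sequenced in 8 groups of 2 libraries, 16 in all, made of 2 genotypes and 4 stages. The genotypes were GS, taken as the G2019S form of LRRK2 in the series title, and WT, and the stages were intact striatum and 6 h, 3 d and 15 d after 0.8 µl of 500 mM ATP was injected into the striatum of 1 side of the brain. ATP is released by damaged cells, and no group injected with vehicle is analysed here, so injection and ATP cannot be told apart. The labels call the replicates biological. The sources used here state no age, sex, strain or pooling, nor whether GS is an altered endogenous gene or an added copy. Fold changes are on the log2 scale with a standard error after the ± sign, and levels are CPM, counts scaled to library size with TMM factors. A gene "passed", and is said to rise or fall, at a Benjamini-Hochberg adjusted p under 0.05 over all 18813 genes tested by edgeR's quasi-likelihood test.

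Library totals ran from 49220578 to 63948110 counts. Lrrk2 was measured at 110 to 217 CPM over all libraries, and a change of a residue need not alter its level, so this checks no label. Markers of striatal projection neurons summed to 4902 to 8114 CPM in every library, so markers of the labelled tissue were present. Markers of cortical neurons, which striatum should lack, were high in 3 WT libraries: Slc17a7, the vesicular glutamate transporter of cortical neurons, stood at 136 CPM in WT intact replicate 1, 72.7 CPM in WT 6 h replicate 2 and 35.0 CPM in WT 15 d replicate 1, against 4.47 to 30.4 CPM in the others. The choroid plexus gene Ttr ran from 21.7 to 359 CPM, with the highest value in GS intact replicate 1. In these bulk samples, fewer cells of a type and less RNA per cell cannot be told apart.

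Col4a5 and Col4a6, a head-to-head pair that moved together, and Col3a1 and Col1a2, the fibrillar genes with the largest rises, are shown by the bases before their starts (RefSeq, GRCm38.p6). Annotated exon bases at the end of the window were left out, and each sequence reads 5′ to 3′ on the strand of its gene. Capitals mark a CCAAT box (CCAAT), a GC box (GGGCGG) or a TATA box (TATAAA), searched on both strands, and none of the marked matches overlaps another. Matches in bases left out are not shown. The starts used for Col4a5 (141475419) and Col4a6 (141474076) lie inside the gene spans given below. The last printed bases of both therefore fall within those spans, with part of the marked GC box of Col4a6. Col4a5 lies at chrX:141475169-141475384 (plus strand), Col4a6 at chrX:141474077-141474326 (minus strand), Col3a1 at chr1:45311288-45311537 (plus strand) and Col1a2 at chr6:4505368-4505492 (plus strand).
Col4a5: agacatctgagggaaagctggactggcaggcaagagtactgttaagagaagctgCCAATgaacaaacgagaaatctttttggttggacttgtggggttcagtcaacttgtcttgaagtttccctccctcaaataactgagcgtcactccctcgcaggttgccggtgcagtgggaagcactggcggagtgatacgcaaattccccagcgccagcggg
Col4a6: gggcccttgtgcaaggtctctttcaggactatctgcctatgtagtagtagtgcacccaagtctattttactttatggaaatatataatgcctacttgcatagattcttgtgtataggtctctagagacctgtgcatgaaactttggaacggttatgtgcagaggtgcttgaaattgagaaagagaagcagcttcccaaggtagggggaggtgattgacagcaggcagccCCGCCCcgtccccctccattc
Col3a1: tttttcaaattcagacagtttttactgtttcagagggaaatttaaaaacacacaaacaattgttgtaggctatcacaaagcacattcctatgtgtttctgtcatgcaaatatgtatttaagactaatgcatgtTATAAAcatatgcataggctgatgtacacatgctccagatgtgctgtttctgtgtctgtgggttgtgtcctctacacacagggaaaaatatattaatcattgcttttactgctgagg
Col1a2: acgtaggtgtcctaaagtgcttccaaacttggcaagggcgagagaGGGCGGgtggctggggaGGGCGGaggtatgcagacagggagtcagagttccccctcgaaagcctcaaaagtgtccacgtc
The starts of Col4a5 and Col4a6 lie 1343 bases apart, pointing away from each other, and those of Col4a1 and Col4a2 overlap head to head, 21 bases apart on chromosome 8. In the 250 bases before the start, 21 of the 33 collagens with a promoter sequence held a GC box (63.6%), against 32.9% of 27025 promoters in all. The remaining collagens had no promoter sequence in the reference used. A CCAAT box was present in 12 of 33 collagens (36.4%) and 34.5% of all promoters, and a TATA box in 4 of 33 (12.1%) and 13% of all. These matches describe letters only, and no test of the shares was run.

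The collagens ranged widely in level. Averaged over all libraries, 6 lay under 1 CPM, 25 at 1 to under 10 CPM and 11 at 10 CPM or more, with a median of 4.87 CPM, and the low count filter removed none of them. Per kilobase of coding length, the highest mean levels were 45.4 CPM for Col6a1, a chain of type VI filaments, 20.6 CPM for Col25a1, a transmembrane collagen of neurons found in amyloid plaques, and 8.51 CPM for Col4a2. Col6a1 took 16.7 to 31.8% of the summed CPM of all collagens. That sum ran, in GS, from 395 to 463 CPM in intact striatum, 444 to 464 CPM at 6 h, 503 to 532 CPM at 3 d and 648 to 704 CPM at 15 d. In WT it ran from 479 to 589 CPM, 454 to 468 CPM, 475 to 557 CPM and 565 to 631 CPM at the same stages. The sums at 15 d lay above those of intact striatum without overlap in GS, and overlapped them in WT.

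Injury was compared with intact striatum of the same genotype. At 6 h few collagens passed: in GS 3 rose and 1 fell, where 7.47% of all genes rose and 6.37% fell (13.8% in either direction). In WT 0 rose and 1 fell in edgeR, where 2.54% of all genes rose and 1.55% fell (4.09% in either direction). At an unadjusted p under 0.05 in edgeR there were 12 WT collagens, with no share of all genes at that threshold given here. DESeq2 called 3 and limma-voom 1, with no share of all genes given here for either. At 3 d 12 of 42 collagens rose in GS (28.6%) and 5 fell, where 18.6% of all genes rose and 16.4% fell (35.1% in either direction). In WT at 3 d 12 rose (28.6%) and 8 fell, where 14.7% of all genes rose and 12.7% fell (27.4% in either direction). At 15 d 20 of 42 rose in GS (47.6%) and 2 fell, where 19.4% of all genes rose and 17.6% fell (37.1% in either direction). In WT at 15 d 12 rose and 3 fell, where 14.2% of all genes rose and 11.2% fell (25.4% in either direction). The median log2 fold change of the collagens was 0.43 at 3 d and 0.91 at 15 d in GS, and -0.11 at 3 d and 0.27 at 15 d in WT, beside medians of -0.023 to -0.010 over all genes tested.

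Over the 6 injury comparisons 32 collagens passed at least once. In the edgeR fit of all groups 22 of these rose and never fell, 10 fell and never rose, and 10 of the 42 never passed. Of these 10, Col7a1, Col22a1 and Col28a1 passed under no other setting run either. Col2a1, Col4a3, Col4a4, Col6a2, Col8a1, Col25a1 and Col26a1 each passed under at least 1 of them. Col1a1, Col1a2, Col3a1, Col5a3, Col4a5, Col4a6, Col6a5, Col12a1, Col16a1 and Col18a1 rose at both 3 d and 15 d in both genotypes, and Col17a1 fell in all 4 of these comparisons. Each genotype has its own intact group, but the 3 times of a genotype share it. How many of all genes passed at least once, kept 1 direction or passed in all 4 of these comparisons was not counted. In each comparison at 3 d and 15 d 25.4 to 37.1% of all genes passed, so many genes of any list could pass at least once.

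**Figure D1:**
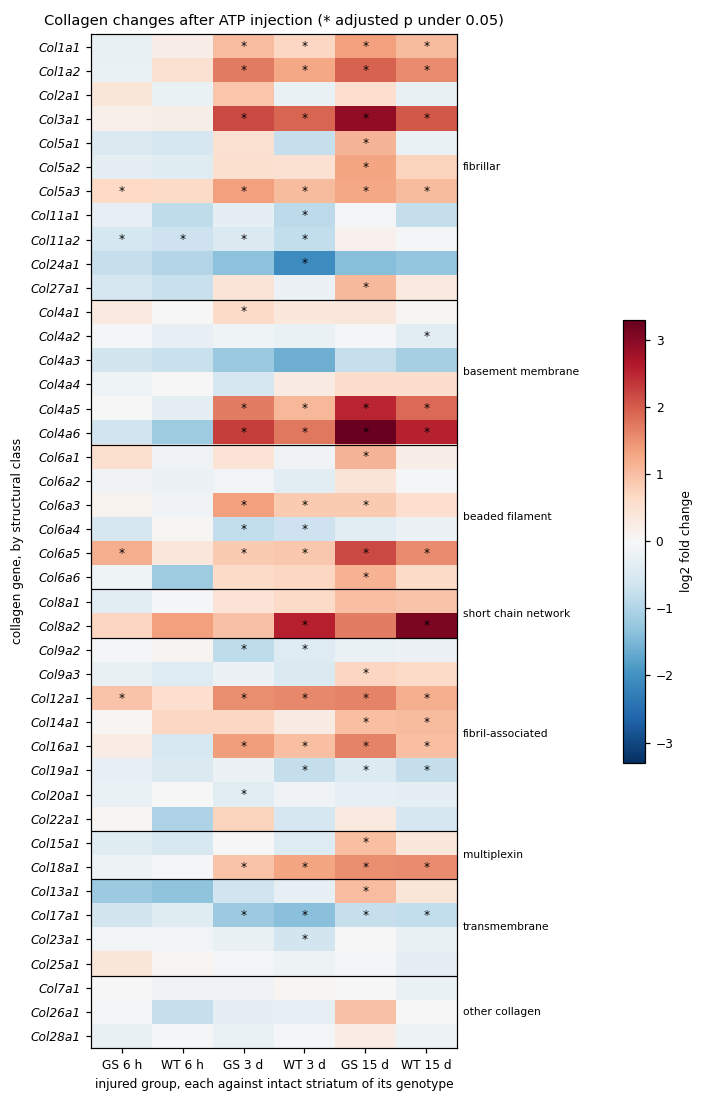
Log2 fold change of each of the 42 collagen genes (down the page, by structural class) in the 6 injured groups against intact striatum of the same genotype, GS left of WT at each time, with a star where the edgeR adjusted p was under 0.05. The deepest red cells are Col4a6 in GS at 15 d (3.27) and Col8a2 in WT at 15 d (3.11), and the deepest blue cell is Col24a1 in WT at 3 d (-2.07).

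Cortical marker genes had lower means after injury in both genotypes. Their summed level was 7.65 to 14.9 CPM at 3 d, 6.83 to 18.1 CPM at 15 d and 42.0 to 43.7 CPM in intact striatum of GS, with no overlap, and 0 of 6 passed in edgeR in GS at either time (3 at 3 d and 2 at 15 d at an unadjusted p under 0.05). In WT it was 7.85 to 12.4 CPM at 3 d, 14.4 to 50.6 CPM at 15 d and 23.3 to 178 CPM in intact striatum, and 5 of 6 fell at 3 d and 0 passed at 15 d (2 at an unadjusted p under 0.05). Without the 3 libraries highest in these markers, 12 collagens passed in WT at 3 d in place of 20, and 11 of them were among the 20. With a cortical score in the edgeR fit 4 of the 20 were kept, Col12a1 and Col16a1 higher and Col11a2 and Col17a1 lower. The same score gave 14 collagens at 3 d and 17 at 15 d in GS, and 13 at 15 d in WT. Both settings were chosen after seeing the data.

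Among fibrillar collagens, 4 of 11 rose at 3 d and 7 of 11 at 15 d in GS, and 4 of 11 rose at both times in WT. At 3 d 1 fell in GS and 3 in WT. Of all genes 18.6% rose and 16.4% fell at 3 d in GS, and 19.4% rose and 17.6% fell at 15 d. In WT 14.7% rose and 12.7% fell at 3 d, and 14.2% rose and 11.2% fell at 15 d. These shares stand beside the counts of each class and marker list below. The class median was 0.53 at 3 d and 1.13 at 15 d in GS, and -0.19 at 3 d and 0.32 at 15 d in WT. The genes that rose in both genotypes encode type I and type III collagen, the fibres that fill scars, and the alpha 3 chain of type V, which joins type I fibrils.

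Col3a1 (NCBI Gene 12825, chr1:45311538-45349706) encodes the chain of type III collagen of vessel walls and soft tissue. Col3a1 in GS stood at 2.31 and 1.69 CPM when intact, 2.39 and 2.14 at 6 h, 5.61 and 12.6 at 3 d, and 12.5 and 17.9 at 15 d. In WT, Col3a1 stood at 2.10 and 1.46 CPM when intact, 2.54 and 1.55 at 6 h, 5.31 and 8.14 at 3 d, and 5.99 and 8.83 at 15 d. Both 3 d and 15 d libraries lay above intact libraries in each genotype, and the 6 h libraries overlapped them. Col3a1 rose in GS by 2.18 ± 0.38 (edgeR adjusted p = 0.000497) at 3 d and by 2.92 ± 0.38 (edgeR adjusted p = 5.08e-05) at 15 d. In WT, Col3a1 rose by 1.91 ± 0.38 (edgeR adjusted p = 0.00222) at 3 d and by 2.05 ± 0.38 (edgeR adjusted p = 0.00153) at 15 d. These are 4.54 and 7.57-fold in GS and 3.77 and 4.14-fold in WT. At 15 d the 2 GS libraries were above both WT libraries.

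Type I collagen, the main fibre of bone, tendon and scar, is built from Col1a1 (NCBI Gene 12842, chr11:94936224-94953042) and Col1a2 (NCBI Gene 12843, chr6:4505618-4541543). Col1a2 in GS stood at 4.67 and 3.81 CPM when intact, 3.75 and 3.55 at 6 h, 10.2 and 17.9 at 3 d, and 13.5 and 19.0 at 15 d. In WT, Col1a2 stood at 3.29 and 3.74 CPM when intact, 6.12 and 3.79 at 6 h, 7.49 and 9.61 at 3 d, and 8.47 and 12.3 at 15 d. All libraries at 3 d and 15 d exceeded those of intact striatum. Col1a2 rose in GS at 3 d (1.72 ± 0.29, edgeR adjusted p = 0.000380) and 15 d (1.94 ± 0.29, edgeR adjusted p = 0.000133). In WT, Col1a2 rose at 3 d (1.28 ± 0.29, edgeR adjusted p = 0.00499) and 15 d (1.56 ± 0.29, edgeR adjusted p = 0.00154). Col1a1 in GS stood at 3.66 and 3.22 CPM when intact, 2.89 and 2.94 at 6 h, 5.25 and 8.77 at 3 d, and 7.32 and 10.2 at 15 d. In WT, Col1a1 stood at 2.76 and 3.06 CPM when intact, 3.12 and 3.63 at 6 h, 4.65 and 4.71 at 3 d, and 5.56 and 6.49 at 15 d. Its 3 d and 15 d libraries again lay above intact in both genotypes. Col1a1 had smaller log2 fold changes than Col1a2 at these times, and rose in GS by 1.03 ± 0.22 (edgeR adjusted p = 0.00263) at 3 d and by 1.35 ± 0.22 (edgeR adjusted p = 0.000327) at 15 d. In WT, Col1a1 rose by 0.68 ± 0.23 (edgeR adjusted p = 0.0373) at 3 d and by 1.05 ± 0.23 (edgeR adjusted p = 0.00397) at 15 d. The WT call of Col1a1 at 3 d was lost without any of its 4 libraries (0.61 to 0.76, edgeR adjusted p = 0.0858 to 0.193), that of Col1a2 without WT intact replicate 1 (1.19, 0.0550), and that of Col1a1 in GS at 3 d without GS 3 d replicate 2 (0.61, 0.0582). At 15 d the WT call of Col1a1 was lost without the 3 libraries highest in cortical markers (1.08), which leaves 1 library each in WT intact and WT 15 d.

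Across the 16 libraries Col1a1 and Col1a2 correlated at a Pearson r of 0.965 on the log2(CPM + 1) scale. Per kilobase of coding length, the level of Col1a1 was 0.463 to 0.904 times that of Col1a2, with a median of 0.603. The libraries share stage and genotype, so this r is a description.

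Col24a1 (NCBI Gene 71355, chr3:145292472-145552013), a minor fibrillar collagen, had the largest fall. Col24a1 in GS stood at 2.36 and 2.55 CPM when intact, 1.08 and 1.83 at 6 h, 0.751 and 1.19 at 3 d, and 1.11 and 0.739 at 15 d. In WT, Col24a1 stood at 6.13 and 1.84 CPM when intact, 1.33 and 2.74 at 6 h, 1.10 and 0.801 at 3 d, and 2.39 and 0.846 at 15 d. The WT intact libraries differed widely, and the high one is the library with the most Slc17a7. It fell in WT at 3 d (-2.07 ± 0.56, edgeR adjusted p = 0.0136), and the GS values of -1.34 ± 0.56 (edgeR adjusted p = 0.0786) at 3 d and -1.41 ± 0.57 (edgeR adjusted p = 0.0650) at 15 d did not pass. In GS it passed with DESeq2 at 3 d (-1.34, adjusted p = 0.0351) and 15 d (-1.40, adjusted p = 0.0255). With the groups of the comparison alone it passed in edgeR in GS at 3 d (-1.34, adjusted p = 0.00943) and 15 d (-1.39, adjusted p = 0.00343). Without the 3 libraries highest in cortical markers, all of them WT, the GS values were -1.34 at 3 d and -1.41 at 15 d. The WT call was lost without WT intact replicate 1 (-0.96, edgeR adjusted p = 0.290), without WT 3 d replicate 2 (-1.86, 0.0918) and with the cortical score (-0.24, 0.692).

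Of the other fibrillar genes, Col5a3 rose in GS at 6 h (0.65 ± 0.21, edgeR adjusted p = 0.0482), 3 d (1.34 ± 0.20, edgeR adjusted p = 0.000197) and 15 d (1.27 ± 0.20, edgeR adjusted p = 0.000250). In WT, Col5a3 rose at 3 d (1.05 ± 0.20, edgeR adjusted p = 0.00179) and 15 d (1.05 ± 0.20, edgeR adjusted p = 0.00201). Its GS call at 6 h was lost without any of 10 libraries, at an edgeR adjusted p of up to 0.286 (0.50, without GS 6 h replicate 1), and its WT call at 3 d with the cortical score (0.80, 0.0592). Col5a1 (1.13 ± 0.42, edgeR adjusted p = 0.0465), Col5a2 (1.30 ± 0.28, edgeR adjusted p = 0.00195) and the cartilage collagen Col27a1 (1.06 ± 0.22, edgeR adjusted p = 0.00183) rose at 15 d in GS. In WT they had -0.21 ± 0.41, 0.73 ± 0.28 and 0.32 ± 0.22 at that time and did not pass in edgeR. The WT value of Col5a1 rested on WT intact replicate 1, which held 8.05 CPM against 2.74 CPM in its replicate, and without it was 0.77 (edgeR adjusted p = 0.229). Col5a2 passed in WT at 15 d with DESeq2 (0.74, adjusted p = 0.0305) and in edgeR with the groups of the comparison alone (0.74, adjusted p = 0.0477). The Col5a1 call was lost without any of 10 libraries (edgeR adjusted p of up to 0.202), and noncoding transcripts on the opposite strand share 99 and 113 exon bases with it. Col11a1 fell in WT at 3 d (-0.86 ± 0.30, edgeR adjusted p = 0.0479), a call lost without any of 9 libraries. Without WT intact replicate 1 the value was -0.38 (edgeR adjusted p = 0.497), and with the cortical score -0.078 (0.894). The call was also lost under 6 other settings, at an adjusted p of 0.0501 with RLE size factors, 0.0619 with no filter, 0.0689 in DESeq2, 0.0564 in limma-voom, 0.0550 with the replicate block and 0.0700 with the groups of the comparison alone. Col2a1 of cartilage did not pass.

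Col11a2 (NCBI Gene 12815, chr17:34038919-34066684), a chain of type XI collagen known from cartilage and the inner ear, moved the other way and early. Col11a2 in GS stood at 45.2 and 46.0 CPM when intact, 28.7 and 32.1 at 6 h, 36.7 and 28.3 at 3 d, and 49.6 and 51.8 at 15 d. In WT, Col11a2 stood at 53.3 and 45.5 CPM when intact, 32.7 and 28.4 at 6 h, 24.7 and 32.0 at 3 d, and 43.4 and 52.7 at 15 d. All 6 h and 3 d libraries lay below the intact ones, and the 15 d libraries were back in or above their range apart from WT 15 d replicate 1. It fell at 6 h in GS (-0.58 ± 0.14, edgeR adjusted p = 0.0139) and WT (-0.70 ± 0.14, edgeR adjusted p = 0.0163) and at 3 d in GS (-0.49 ± 0.14, edgeR adjusted p = 0.0147) and WT (-0.80 ± 0.14, edgeR adjusted p = 0.000994). At 15 d it had 0.15 ± 0.14 in GS and -0.042 ± 0.14 in WT. Of these 4 calls 3 were lost without some library. In GS at 6 h this held without GS intact replicate 1 (-0.60, edgeR adjusted p = 0.0548), GS intact replicate 2 (-0.58, 0.0764) or GS 6 h replicate 1 (-0.51, 0.123). The WT call at 6 h was lost without WT intact replicate 1 (-0.58, 0.140), WT 6 h replicate 1 (-0.80, 0.0518) or WT 6 h replicate 2 (-0.60, edgeR adjusted p = 0.176). At 3 d in GS it was lost without GS intact replicate 1 (-0.50, edgeR adjusted p = 0.0541), GS intact replicate 2 (-0.48, 0.0615) or GS 3 d replicate 2 (-0.31, 0.175). Col11a2 was given in full after its values were seen.

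Markers of fibroblasts and meninges were read beside these genes. Of 10 measured, 4 rose at 3 d and 2 at 15 d in GS, and 3 rose and 1 fell at 3 d and 5 rose at 15 d in WT. Their summed level was 132 to 150 CPM at 3 d, 131 to 139 CPM at 15 d and 100.04 to 128 CPM in intact striatum of GS, and 118 to 122 CPM at 3 d, 120.3 to 140.0 CPM at 15 d and 101 to 108 CPM in intact striatum of WT. Most of this sum was Pdgfra, at 57.9 to 81.4 CPM in a library, and Igf2, at 16.9 to 51.8 CPM. The other markers had means from 1.15 CPM (Tbx18) to 10.8 CPM (Dcn), so the sum is not read as a measure of fibroblasts. Decorin (Dcn), the matrix proteoglycan of fibroblasts, stood at 14.9 and 20.5 CPM at 3 d and 7.95 and 8.11 CPM in intact striatum of GS, and at 13.8 and 14.5 CPM at 3 d and 7.02 and 7.66 CPM in intact striatum of WT. All 10 of these markers were above 0 in every library. Their part in the changes of fibrillar collagens was not tested.

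Type IV collagens form the sheet that underlies endothelium and surrounds pericytes. Of 6 genes, 3 rose at 3 d and 2 at 15 d in GS, and in WT 2 rose at both times and 1 fell at 15 d. The chains split by pair in the edgeR fit of all groups. Col4a5 and Col4a6 rose at both times in both genotypes, whereas Col4a1 and Col4a2, the chains of the ubiquitous network, each passed in 1 comparison. Col4a3 and Col4a4, known from the kidney filter, were low and did not pass there.

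Col4a6 (NCBI Gene 94216, chrX:141165403-141474095) had the largest rise of all collagens in GS. Col4a6 in GS stood at 0.769 and 1.13 CPM when intact, 0.541 and 0.664 at 6 h, 3.85 and 5.33 at 3 d, and 7.68 and 10.6 at 15 d. In WT, Col4a6 stood at 1.32 and 0.845 CPM when intact, 0.426 and 0.542 at 6 h, 1.90 and 5.31 at 3 d, and 4.62 and 8.09 at 15 d. Every 6 h library lay below, and every 3 d and 15 d library above, the intact libraries of its genotype. Col4a6 rose in GS by 2.27 ± 0.43 (edgeR adjusted p = 0.00104) at 3 d and by 3.27 ± 0.44 (edgeR adjusted p = 6.26e-05) at 15 d. In WT, Col4a6 rose by 1.74 ± 0.43 (edgeR adjusted p = 0.00831) at 3 d and by 2.55 ± 0.43 (edgeR adjusted p = 0.000798) at 15 d, and at 6 h it had -0.66 ± 0.49 in GS and -1.16 ± 0.51 in WT and did not pass. At 15 d this is 9.61-fold in GS and 5.84-fold in WT.

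Col4a5 (NCBI Gene 12830, chrX:141475370-141689236), whose human form is mutated in Alport kidney disease, moved closely with it. Col4a5 in GS stood at 2.65 and 2.27 CPM when intact, 2.62 and 2.23 at 6 h, 7.34 and 8.50 at 3 d, and 12.7 and 15.7 at 15 d. In WT, Col4a5 stood at 2.92 and 2.93 CPM when intact, 2.40 and 2.40 at 6 h, 3.84 and 8.71 at 3 d, and 9.38 and 12.1 at 15 d. Again 3 d and 15 d libraries were all above intact ones. Col4a5 rose in GS by 1.68 ± 0.28 (edgeR adjusted p = 0.000445) at 3 d and by 2.52 ± 0.29 (edgeR adjusted p = 1.81e-05) at 15 d. In WT, Col4a5 rose by 1.10 ± 0.28 (edgeR adjusted p = 0.0100) at 3 d and by 1.87 ± 0.28 (edgeR adjusted p = 0.000359) at 15 d. The WT calls at 3 d rested on WT 3 d replicate 2, without which Col4a5 was 0.39 (edgeR adjusted p = 0.233) and Col4a6 0.81 (0.178), and were also lost for Col4a5 without WT intact replicate 1 (1.10, 0.0687) and for Col4a6 without WT intact replicate 2 (1.46, 0.0724). The pair correlated at an r of 0.986 over 16 libraries, and per kilobase Col4a5 was 1.48 to 5.64 times as high as Col4a6.

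The other head-to-head pair behaved differently. Col4a1 (NCBI Gene 12826, chr8:11198423-11312889) in GS stood at 26.0 and 26.2 CPM when intact, 34.1 and 31.2 at 6 h, 35.1 and 45.2 at 3 d, and 31.8 and 35.6 at 15 d. In WT, Col4a1 stood at 34.0 and 23.2 CPM when intact, 29.0 and 28.8 at 6 h, 33.2 and 39.5 at 3 d, and 27.4 and 31.3 at 15 d. Col4a1 rose in GS at 3 d (0.62 ± 0.15, edgeR adjusted p = 0.00617), where both libraries exceeded the intact ones, and had 0.35 ± 0.15 in WT, where they overlapped. The GS call was lost without GS 3 d replicate 2 (0.43, edgeR adjusted p = 0.0981). All GS libraries of Col4a1 at 6 h and 15 d also exceeded the intact ones. In GS at 15 d Col4a1 passed with DESeq2 (0.37, adjusted p = 0.0462). With the groups of the comparison alone it passed in edgeR in GS at 6 h (0.32, adjusted p = 0.0186) and 15 d (0.38, adjusted p = 0.00661). Without WT intact replicate 1 its WT value at 3 d was 0.65. Col4a2 (NCBI Gene 12827, chr8:11312805-11449287) in GS stood at 46.8 and 45.8 CPM when intact, 44.3 and 43.6 at 6 h, 42.4 and 42.3 at 3 d, and 44.8 and 44.5 at 15 d. In WT, Col4a2 stood at 55.7 and 42.9 CPM when intact, 40.6 and 40.8 at 6 h, 40.4 and 44.7 at 3 d, and 36.1 and 41.2 at 15 d. It fell in WT at 15 d (-0.35 ± 0.10, edgeR adjusted p = 0.0194) and had -0.051 ± 0.10 in GS. The WT call was lost without WT intact replicate 1 (-0.15, 0.303) or WT 15 d replicate 1 (-0.26, 0.132), where the second number is the edgeR adjusted p. Without the 3 libraries highest in cortical markers, which leaves 1 library each in WT intact and WT 15 d, the WT value was -0.06. Their r was 0.135, and their exons share 22 bases, so some reads could count for either gene.

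Col4a3 (NCBI Gene 12828, chr1:82586921-82722059) in GS stood at 1.15 and 0.428 CPM when intact, 0.295 and 0.754 at 6 h, 0.359 and 0.311 at 3 d, and 0.528 and 0.396 at 15 d. In WT, Col4a3 stood at 0.819 and 0.469 CPM when intact, 0.443 and 0.325 at 6 h, 0.120 and 0.293 at 3 d, and 0.234 and 0.374 at 15 d. Its log2 fold changes were negative in all 6 comparisons, the lowest -1.62 ± 0.58 (edgeR adjusted p = 0.0514) in WT at 3 d, and none passed. Col4a4 (NCBI Gene 12829, chr1:82448419-82587034) in GS stood at 1.44 and 0.599 CPM when intact, 0.885 and 0.969 at 6 h, 0.800 and 0.568 at 3 d, and 1.51 and 1.51 at 15 d. In WT, Col4a4 stood at 0.819 and 0.883 CPM when intact, 0.699 and 0.9748 at 6 h, 0.788 and 1.25 at 3 d, and 0.904 and 1.65 at 15 d. Injured and intact libraries overlapped at 6 h and 3 d, and at 15 d they did not, with 0.57 ± 0.39 in GS and 0.58 ± 0.40 in WT, which did not pass. Their r was 0.264, at levels where a library held few reads.

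Endothelial and mural markers were read beside type IV collagens. Of 8 endothelial markers 2 rose at 3 d and 1 fell at 15 d in GS, and 3 rose at 3 d and 1 rose at 15 d in WT. Of 11 mural markers 2 rose and 1 fell at 3 d and 2 rose at 15 d in GS, and 2 rose and 1 fell at 3 d and 1 rose and 1 fell at 15 d in WT. The summed endothelial level was 112 to 156 CPM at 3 d, 108 to 117 CPM at 15 d and 108 to 109.7 CPM in intact striatum of GS, and 105 to 128 CPM at 3 d, 91.4 to 120.2 CPM at 15 d and 75.4 to 91.3 CPM in intact striatum of WT. The summed mural level was 201 to 240.0 CPM at 3 d, 202 to 207 CPM at 15 d and 183 to 192 CPM in intact striatum of GS, and 170.3 to 215 CPM at 3 d, 174 to 201 CPM at 15 d and 174 to 185 CPM in intact striatum of WT. It lay above intact without overlap in GS at both times, and overlapped intact in WT. Their part in the rise of Col4a5 and Col4a6 was not tested.

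**Figure D2:**
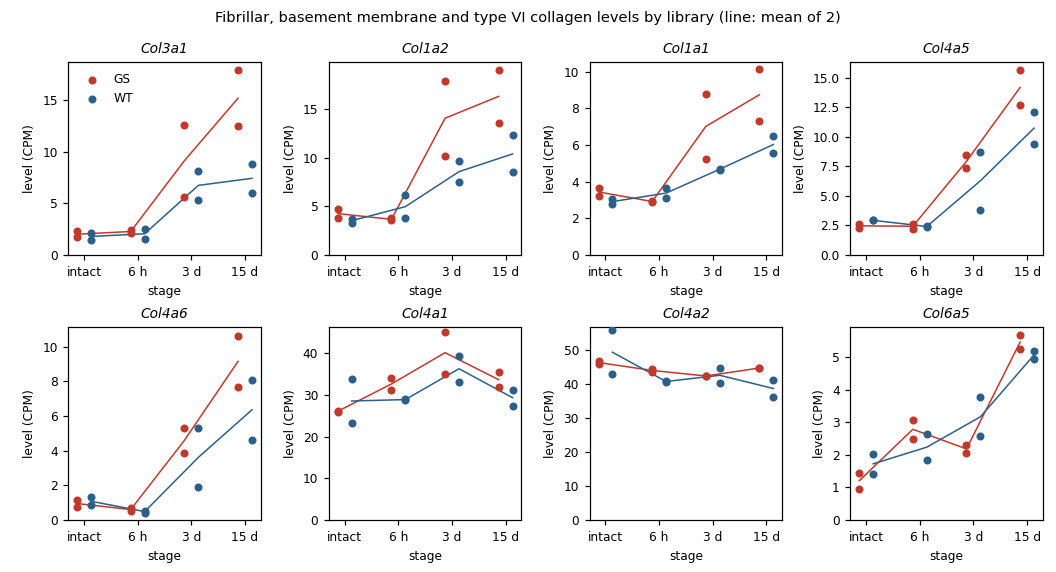
Levels in CPM (vertical axes from 0) of 8 fibrillar, basement membrane and type VI collagens in every library, by stage, with GS in red left of WT in blue and a line through the mean of 2 libraries. Col3a1, Col1a2, Col1a1, Col4a5 and Col4a6 lie low in intact striatum and at 6 h and high at 3 d and 15 d, while Col4a1 stays within 23.2 to 45.2 CPM and Col4a2 within 36.1 to 55.7 CPM.

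Type VI collagen forms beaded microfilaments that link cells to basement membranes. Of 6 genes, 2 rose and 1 fell at 3 d and 4 rose at 15 d in GS, and 2 rose and 1 fell at 3 d and 1 rose at 15 d in WT. Col6a5, Col6a3 and Col6a1 had the largest changes among those averaging at least 1 CPM.

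Col6a5 (NCBI Gene 665033, chr9:105856070-105962463) encodes a long chain that can take the place of the alpha 3 chain. Col6a5 in GS stood at 1.45 and 0.958 CPM when intact, 3.08 and 2.49 at 6 h, 2.30 and 2.07 at 3 d, and 5.25 and 5.69 at 15 d. In WT, Col6a5 stood at 1.42 and 2.03 CPM when intact, 1.84 and 2.64 at 6 h, 2.57 and 3.77 at 3 d, and 5.19 and 4.96 at 15 d. In GS every injured library exceeded both intact ones, and in WT those at 3 d and 15 d did. Col6a5 rose in GS at 6 h (1.21 ± 0.27, edgeR adjusted p = 0.00971), 3 d (0.86 ± 0.27, edgeR adjusted p = 0.0249) and 15 d (2.18 ± 0.27, edgeR adjusted p = 3.41e-05), and in WT at 3 d (0.88 ± 0.26, edgeR adjusted p = 0.0229) and 15 d (1.56 ± 0.26, edgeR adjusted p = 0.000793). The 15 d calls were kept without each library. The others were lost in GS at 6 h without GS intact replicate 2 (0.93, edgeR adjusted p = 0.119) or GS 6 h replicate 1 (1.05, 0.0848), in GS at 3 d without GS intact replicate 2 (0.59, 0.204) or either GS 3 d library (0.78 and 0.93, 0.0931 and 0.0640), and in WT at 3 d without WT intact replicate 1 (0.65, 0.202) or WT 3 d replicate 2 (0.58, 0.209).

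Col6a3 (NCBI Gene 12835, chr1:90766860-90844001), the large chain of the classical filament, had its highest mean at 3 d in both genotypes. Col6a3 in GS stood at 5.92 and 4.79 CPM when intact, 6.00 and 5.69 at 6 h, 13.3 and 14.1 at 3 d, and 8.03 and 11.4 at 15 d. In WT, Col6a3 stood at 6.14 and 4.53 CPM when intact, 5.69 and 4.19 at 6 h, 9.12 and 10.4 at 3 d, and 6.11 and 9.50 at 15 d. Col6a3 rose in GS at 3 d (1.36 ± 0.23, edgeR adjusted p = 0.000429) and 15 d (0.86 ± 0.23, edgeR adjusted p = 0.00886). In WT, Col6a3 rose at 3 d (0.87 ± 0.23, edgeR adjusted p = 0.0118), and the WT value at 15 d was 0.54 ± 0.23 (edgeR adjusted p = 0.0969). Calls were lost in GS at 15 d without GS intact replicate 2 (0.71, 0.0848) or GS 15 d replicate 2 (0.58, 0.121), and in WT at 3 d without WT intact replicate 2 (0.67, 0.106) or WT 3 d replicate 2 (0.77, 0.0694), where the second number is the edgeR adjusted p.

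Col6a1 (NCBI Gene 12833, chr10:76708792-76726044) had the highest level per kilobase. Col6a1 in GS stood at 105 and 65.8 CPM when intact, 134 and 112 at 6 h, 138 and 95.4 at 3 d, and 181 and 188 at 15 d. In WT, Col6a1 stood at 167 and 135 CPM when intact, 128 and 149 at 6 h, 123 and 156 at 3 d, and 176 and 178 at 15 d. The GS intact libraries were the lowest of all groups but for GS 3 d replicate 2, and the 15 d libraries of both genotypes lay close together. Col6a1 rose in GS at 15 d (1.11 ± 0.20, edgeR adjusted p = 0.000628) and had 0.23 ± 0.20 in WT. Its partner Col6a2 (NCBI Gene 12834, chr10:76595756-76623630) in GS stood at 21.6 and 14.7 CPM when intact, 18.02 and 15.4 at 6 h, 19.3 and 14.9 at 3 d, and 23.0 and 25.8 at 15 d. In WT, Col6a2 stood at 24.7 and 19.0 CPM when intact, 19.5 and 18.6 at 6 h, 16.2 and 17.97 at 3 d, and 20.9 and 21.7 at 15 d. It passed in no comparison in edgeR, with 0.43 ± 0.17 (edgeR adjusted p = 0.0642) in GS at 15 d. There it passed with DESeq2 (0.43, adjusted p = 0.0356), limma-voom (0.45, adjusted p = 0.0475) and the replicate block (0.44, adjusted p = 0.0369), and it was 0.73 without GS intact replicate 1 (edgeR adjusted p = 0.00872). The r of Col6a1 and Col6a2 was 0.770, and per kilobase Col6a1 was 4.51 to 8.77 times as high as Col6a2.

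Among the remaining type VI genes, Col6a4 fell at 3 d in GS (-0.81 ± 0.23, edgeR adjusted p = 0.0142) and WT (-0.69 ± 0.23, edgeR adjusted p = 0.0391), and Col6a6 rose at 15 d in GS (1.14 ± 0.33, edgeR adjusted p = 0.0153), from levels under 1 CPM. These calls were lost without 2 to 4 libraries each. Transcripts on the opposite strand share 127 and 162 exon bases with Col6a4 and 63 with Col6a6, and strand use is not given, so both are uncertain.

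Type VIII collagen makes a hexagonal network below some endothelia, and both of its genes were low. Col8a2 (NCBI Gene 329941, chr4:126286794-126314330) in GS stood at 1.71 and 0.582 CPM when intact, 2.21 and 1.53 at 6 h, 2.99 and 1.45 at 3 d, and 3.20 and 4.22 at 15 d. In WT, Col8a2 stood at 0.036 and 1.03 CPM when intact, 0.852 and 1.84 at 6 h, 2.78 and 3.48 at 3 d, and 4.25 and 4.92 at 15 d. WT intact replicate 1 held 2 counts, far below its replicate. Col8a2 rose in WT at 3 d (2.56 ± 0.73, edgeR adjusted p = 0.0177) and 15 d (3.11 ± 0.73, edgeR adjusted p = 0.00644), and the GS values of 0.96 ± 0.67 (edgeR adjusted p = 0.290) and 1.69 ± 0.66 (edgeR adjusted p = 0.0590) did not pass. The GS rise at 15 d passed with limma-voom (1.87, adjusted p = 0.0306) and in edgeR with the groups of the comparison alone (1.71, adjusted p = 0.00950). The WT value depended on the intact library used, at 6.37 at 3 d and 6.92 at 15 d without WT intact replicate 2, and the 3 d call was lost without WT intact replicate 1 (1.60, edgeR adjusted p = 0.1005) or WT 3 d replicate 2 (2.39, 0.0638). Col8a1 (NCBI Gene 12837, chr16:57624256-57754737) in GS stood at 2.02 and 0.718 CPM when intact, 1.02 and 1.11 at 6 h, 1.70 and 2.03 at 3 d, and 2.73 and 2.68 at 15 d. In WT, Col8a1 stood at 1.02 and 0.601 CPM when intact, 0.904 and 0.650 at 6 h, 0.840 and 1.66 at 3 d, and 1.22 and 1.91 at 15 d. Its 15 d libraries lay above intact in both genotypes, at 0.98 ± 0.42 (edgeR adjusted p = 0.0782) in GS and 0.94 ± 0.44 (edgeR adjusted p = 0.136) in WT, and it did not pass. In GS at 15 d it passed with limma-voom (1.16, adjusted p = 0.0301) and, in edgeR, without GS intact replicate 1 (1.91, adjusted p = 0.00772).

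Markers of the choroid plexus, the tissue that secretes cerebrospinal fluid, were read beside these genes. Their summed level was 60.02 to 178 CPM at 15 d and 87.9 to 413 CPM in intact striatum of GS, and 191 to 275 CPM at 15 d and 53.6 to 108 CPM in intact striatum of WT. Of 8 such markers 1 rose at 3 d and 3 at 15 d in WT in edgeR, and 0 passed in GS at 3 d or 15 d, also at an unadjusted p under 0.05. GS intact replicate 1, the highest library in this sum, held more Col8a1 (2.02 against 0.718 CPM), Col8a2 (1.71 against 0.582 CPM) and Col18a1 (3.92 against 2.36 CPM) than GS intact replicate 2. The part of choroid plexus RNA in these values was not tested.

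Fibril-associated collagens coat or link other fibrils. Of 8 genes, 2 rose and 2 fell at 3 d and 4 rose and 1 fell at 15 d in GS, and 2 rose and 2 fell at 3 d and 3 rose and 1 fell at 15 d in WT. The class held genes of both directions, with Col12a1 and Col16a1 higher and Col19a1 and Col9a2 lower after injury.

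Col12a1 (NCBI Gene 12816, chr9:79598987-79721141) binds the surface of type I fibrils. Col12a1 in GS stood at 3.27 and 2.77 CPM when intact, 6.48 and 5.15 at 6 h, 7.54 and 10.1 at 3 d, and 7.87 and 11.0 at 15 d. In WT, Col12a1 stood at 3.42 and 2.37 CPM when intact, 4.57 and 3.95 at 6 h, 8.09 and 9.30 at 3 d, and 4.77 and 8.50 at 15 d. All injured libraries exceeded the intact ones of their genotype. Col12a1 rose in GS at 6 h (0.95 ± 0.27, edgeR adjusted p = 0.0318), 3 d (1.54 ± 0.27, edgeR adjusted p = 0.000577) and 15 d (1.65 ± 0.27, edgeR adjusted p = 0.000311). In WT, Col12a1 rose at 3 d (1.59 ± 0.27, edgeR adjusted p = 0.000846) and 15 d (1.19 ± 0.27, edgeR adjusted p = 0.00572), and at 6 h in WT it had 0.56 ± 0.28. The GS call at 6 h was lost without any of its 4 libraries (0.77 to 1.10, edgeR adjusted p = 0.0637 to 0.204), and the WT call at 15 d without WT intact replicate 2 (0.95, 0.0632) or WT 15 d replicate 2 (0.72, 0.107).

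Col16a1 (NCBI Gene 107581, chr4:130047817-130099277), which links fibrils to cells, had the highest level per kilobase (6.91 CPM) of the 10 that rose at both times in both genotypes. Col16a1 in GS stood at 17.97 and 16.1 CPM when intact, 19.4 and 21.4 at 6 h, 47.5 and 40.7 at 3 d, and 47.9 and 57.9 at 15 d. In WT, Col16a1 stood at 21.6 and 23.4 CPM when intact, 15.8 and 15.2 at 6 h, 42.3 and 47.8 at 3 d, and 34.7 and 54.5 at 15 d. At 6 h the GS libraries lay above and the WT libraries below intact ones, and at 3 d and 15 d all lay above. The WT change at 6 h did not pass in the edgeR fit of all groups. It passed as a fall with DESeq2 (-0.53, adjusted p = 0.0243). In edgeR it also passed with the groups of the comparison alone (-0.54, adjusted p = 0.00999) and with the cortical score (-0.60, adjusted p = 0.0240). Col16a1 rose in GS by 1.37 ± 0.16 (edgeR adjusted p = 3.53e-05) at 3 d and by 1.63 ± 0.17 (edgeR adjusted p = 7.29e-06) at 15 d. In WT, Col16a1 rose by 1.00 ± 0.16 (edgeR adjusted p = 0.000572) at 3 d and by 0.98 ± 0.16 (edgeR adjusted p = 0.000703) at 15 d, which all held without each library. Without WT 15 d replicate 2 the WT value at 15 d was 0.63 (edgeR adjusted p = 0.00825), and with the cortical score the WT value at 3 d was 0.65 (0.0254).

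Col14a1 (NCBI Gene 12818, chr15:55307644-55520803), a relative of Col12a1, in GS stood at 1.15 and 0.770 CPM when intact, 0.754 and 1.22 at 6 h, 1.96 and 1.14 at 3 d, and 1.67 and 2.13 at 15 d. In WT, Col14a1 stood at 0.677 and 1.22 CPM when intact, 1.53 and 1.53 at 6 h, 1.01 and 1.26 at 3 d, and 2.01 and 1.89 at 15 d. It rose at 15 d in GS (0.99 ± 0.34, edgeR adjusted p = 0.0359) and WT (1.04 ± 0.35, edgeR adjusted p = 0.0393), where injured libraries lay above intact ones. The GS call was lost without GS intact replicate 2 (0.73, edgeR adjusted p = 0.229) or either GS 15 d library (1.15 and 0.80, 0.0534 and 0.187). The WT call was lost without WT intact replicate 1 (0.67, 0.285), either WT 15 d library (1.00 and 1.08, 0.108 and 0.115) or either WT 6 h library (1.04, 0.0511).

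Of the other fibril-associated genes, Col19a1, which in mouse brain is made by some neurons, fell in WT at 3 d (-0.80 ± 0.17, edgeR adjusted p = 0.00349) and 15 d (-0.80 ± 0.17, edgeR adjusted p = 0.00375) and in GS at 15 d (-0.46 ± 0.17, edgeR adjusted p = 0.0481). The WT calls were lost without WT intact replicate 1 (-0.56 at 3 d and -0.55 at 15 d, edgeR adjusted p = 0.0667 and 0.0675), at 15 d in WT also without WT 15 d replicate 2 (-0.57, 0.0590), and the GS call without any of 10 libraries (adjusted p up to 0.291). Col9a2, a type IX chain of cartilage, fell at 3 d in GS (-0.83 ± 0.12, edgeR adjusted p = 0.000159) and WT (-0.43 ± 0.12, edgeR adjusted p = 0.0173), and the WT call was lost without WT intact replicate 1 (-0.38, 0.122) or either WT 3 d library (-0.40 and -0.45, 0.0810 and 0.0609). Col20a1 fell at 3 d in GS (-0.35 ± 0.11, edgeR adjusted p = 0.0259) and Col9a3 rose at 15 d in GS (0.70 ± 0.26, edgeR adjusted p = 0.0494). The Col20a1 call was lost without either GS intact library, and without GS 3 d replicate 2 its value was -0.21 (edgeR adjusted p = 0.242). The Col9a3 call was lost without any of 11 libraries. Its value was 0.35 without GS intact replicate 2 (edgeR adjusted p = 0.389) and 1.15 without GS intact replicate 1 (0.0106), and it was lost in DESeq2 (adjusted p = 0.0785), with the replicate block (0.0567) and with no filter (0.0630). Col9a3 shares 234 exon bases with Tcfl5 on the opposite strand and is uncertain. Col22a1 never passed.

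Multiplexins sit at the edge of basement membranes and release fragments that restrain vessel growth, endostatin in the case of Col18a1. Of the pair, 1 rose at 3 d and both at 15 d in GS, and Col18a1 alone passed in WT. Col18a1 (NCBI Gene 12822, chr10:77052178-77166530) in GS stood at 3.92 and 2.36 CPM when intact, 2.80 and 2.76 at 6 h, 5.65 and 6.37 at 3 d, and 7.76 and 10.4 at 15 d. In WT, Col18a1 stood at 2.23 and 2.16 CPM when intact, 2.15 and 2.13 at 6 h, 3.93 and 6.90 at 3 d, and 5.16 and 7.77 at 15 d. Its 3 d and 15 d libraries lay above intact ones in both genotypes. Col18a1 rose in GS by 0.94 ± 0.28 (edgeR adjusted p = 0.0182) at 3 d and by 1.53 ± 0.28 (edgeR adjusted p = 0.000702) at 15 d. In WT, Col18a1 rose by 1.30 ± 0.29 (edgeR adjusted p = 0.00440) at 3 d and by 1.56 ± 0.29 (edgeR adjusted p = 0.00154) at 15 d. The 3 d calls were lost in GS without GS intact replicate 2 (0.61, edgeR adjusted p = 0.179) or GS 3 d replicate 2 (0.85, 0.103) and in WT without WT 3 d replicate 2 (0.84, 0.0689). Col15a1 (NCBI Gene 12819, chr4:47207655-47313167) in GS stood at 4.75 and 4.17 CPM when intact, 3.295 and 3.46 at 6 h, 4.55 and 4.49 at 3 d, and 7.66 and 10.2 at 15 d. In WT, Col15a1 stood at 5.88 and 4.21 CPM when intact, 4.07 and 2.91 at 6 h, 3.17 and 4.28 at 3 d, and 5.78 and 7.003 at 15 d. It lay below intact levels at 6 h in both genotypes and rose in GS at 15 d (1.00 ± 0.22, edgeR adjusted p = 0.00235), where WT had 0.34 ± 0.22.

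Transmembrane collagens are anchored in the cell surface. Of 4 genes, 1 fell at 3 d and 1 rose and 1 fell at 15 d in GS, and 2 fell at 3 d and 1 at 15 d in WT. Col17a1 (NCBI Gene 12821, chr19:47646341-47692042), which ties skin cells to their basement membrane, in GS stood at 3.61 and 4.05 CPM when intact, 2.74 and 2.26 at 6 h, 2.04 and 1.30 at 3 d, and 1.94 and 2.58 at 15 d. In WT, Col17a1 stood at 4.13 and 3.77 CPM when intact, 3.55 and 2.46 at 6 h, 1.49 and 1.54 at 3 d, and 2.65 and 1.85 at 15 d. Every injured library lay below the intact ones of its genotype, and the lowest means were at 3 d. It fell in GS at 3 d (-1.19 ± 0.26, edgeR adjusted p = 0.00299) and 15 d (-0.76 ± 0.26, edgeR adjusted p = 0.0318). In WT, Col17a1 fell at 3 d (-1.38 ± 0.27, edgeR adjusted p = 0.00177) and 15 d (-0.81 ± 0.26, edgeR adjusted p = 0.0337). The 3 d calls held without each library. The 15 d calls were lost in GS without either GS intact library (-0.85 and -0.68, edgeR adjusted p = 0.0641 and 0.137) or GS 15 d replicate 1 (-0.57, 0.207), and in WT without either WT intact library (-0.74 and -0.87, 0.146 and 0.0736) or WT 15 d replicate 2 (-0.58, 0.248).

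Col23a1 (NCBI Gene 237759, chr11:51289679-51583925) in GS stood at 5.74 and 4.46 CPM when intact, 5.16 and 4.38 at 6 h, 4.52 and 4.16 at 3 d, and 4.84 and 5.37 at 15 d. In WT, Col23a1 stood at 6.86 and 4.43 CPM when intact, 5.68 and 5.02 at 6 h, 3.41 and 3.94 at 3 d, and 4.86 and 4.70 at 15 d. It fell in WT at 3 d (-0.62 ± 0.20, edgeR adjusted p = 0.0345) and had -0.23 ± 0.20 in GS. The WT call was lost without WT intact replicate 1 (-0.27, edgeR adjusted p = 0.444) or either WT 3 d library (-0.51 and -0.73, 0.164 and 0.0670). Col13a1, known from the nerve to muscle synapse, rose in GS at 15 d (1.03 ± 0.34, edgeR adjusted p = 0.0302), a call lost without 3 libraries, and Col25a1 did not pass. In GS at 6 h Col25a1 passed with DESeq2 (0.39, adjusted p = 0.0337) and in edgeR with the groups of the comparison alone (0.39, adjusted p = 0.00460).

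The 3 remaining genes, Col7a1, Col26a1 and Col28a1, did not pass. In GS at 15 d Col26a1 passed with the replicate block (0.98, edgeR adjusted p = 0.0418). Col7a1 (NCBI Gene 12836, chr9:108953586-108984875), the anchoring fibril collagen of skin, in GS stood at 4.75 and 3.45 CPM when intact, 3.64 and 4.43 at 6 h, 3.97 and 3.61 at 3 d, and 4.22 and 3.96 at 15 d. In WT, Col7a1 stood at 4.02 and 3.40 CPM when intact, 3.21 and 3.63 at 6 h, 4.27 and 3.53 at 3 d, and 2.88 and 3.56 at 15 d. Injured and intact libraries overlapped in every comparison, and its changes lay between -0.21 ± 0.20 and 0.069 ± 0.20.

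**Figure D3:**
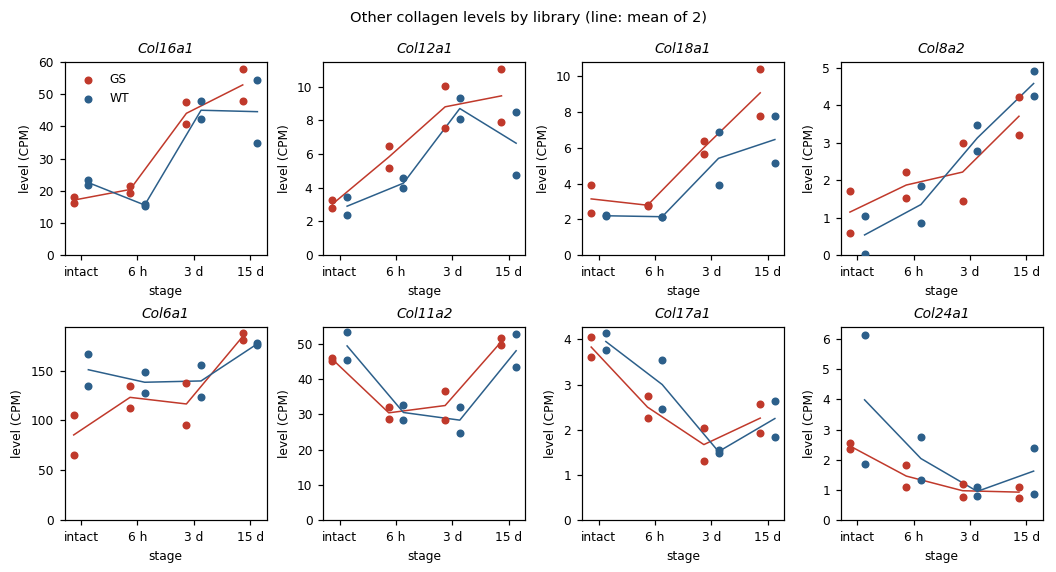
Levels in CPM (vertical axes from 0) of 8 collagens of other classes and patterns in every library, by stage, with GS in red left of WT in blue and a line through the mean of 2 libraries. Col16a1, Col12a1 and Col18a1 are high at 3 d and 15 d, Col11a2 dips at 6 h and 3 d to 24.7 to 36.7 CPM, and WT intact replicate 1 stands apart in Col8a2 (0.036 CPM) and Col24a1 (6.13 CPM).

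The later stage was also set against the earlier. At 15 d against 3 d 5 collagens rose and none fell in GS, where 1.08% of all genes rose and 1.02% fell, and 2 rose and none fell in WT, where 1.63% of all genes rose and 1.57% fell. In GS these were Col13a1 (1.68 ± 0.36, edgeR adjusted p = 0.0308), Col6a5 (1.32 ± 0.26, edgeR adjusted p = 0.0209), Col15a1 (0.98 ± 0.22, edgeR adjusted p = 0.0352), Col11a2 (0.64 ± 0.14, edgeR adjusted p = 0.0338) and Col9a2 (0.61 ± 0.12, edgeR adjusted p = 0.0241). In WT they were Col9a3 (1.12 ± 0.27, edgeR adjusted p = 0.0357) and Col11a2 (0.76 ± 0.14, edgeR adjusted p = 0.0118). Col11a2 and Col9a2 had fallen at 3 d against intact striatum in both genotypes. Col9a2 in GS stood at 10.9 and 12.4 CPM when intact, 6.80 and 6.32 at 3 d, and 10.6 and 9.46 at 15 d. With the groups of the comparison alone Col4a5 (0.84, edgeR adjusted p = 0.0231) and Col4a6 (1.00, edgeR adjusted p = 0.0422) passed in GS. Col4a5 also passed there with DESeq2 (0.84, adjusted p = 0.0338). In WT Col15a1 passed with DESeq2 (0.78, adjusted p = 0.0194). In the edgeR fit of all 8 groups the genes with the largest rises over intact striatum did not pass, with 0.74 ± 0.34 for Col3a1 and 1.00 ± 0.38 for Col4a6 in GS. The count fell to 0 without GS 3 d replicate 2 or either GS 15 d library in GS, and without WT 3 d replicate 1 or WT 15 d replicate 2 in WT. All of these calls rest on 2 libraries a group, and each was lost without 2 to 6 libraries.

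No collagen differed between GS and WT past the adjusted threshold in edgeR, in intact striatum, at 6 h, 3 d or 15 d, or averaged over stages. DESeq2 and limma-voom also gave 0. At the adjusted threshold the background was low as well, with 0.0159%, 0.00532%, 0.0106%, 0.00532% and 0.0106% of all genes passing in edgeR. At an unadjusted p under 0.05 edgeR gave 5, 1, 5, 5 and 7 of 42 in these comparisons. The share of all genes at that unadjusted threshold is not given here, so these counts are not read as an excess. At 15 d 35 of 42 collagens had a higher mean in GS, with a median of 0.23, beside 9343 of 18813 genes and a median of -0.0012 for all genes, and in intact striatum 15 of 42 were higher in GS, with a median of -0.14. In GS at 15 d the collagen sums were 648 and 704 CPM and the summed levels of the myeloid markers 875 and 1291 CPM. The WT libraries at 15 d differed from each other: replicate 1, which is among the 3 highest in cortical markers, had a summed collagen level of 565 CPM, against 631 CPM in replicate 2, and a summed myeloid marker level of 504 CPM, against 882 CPM. Without WT 15 d replicate 1, 35 of 42 collagens were higher in GS, with a median of 0.17, and without WT 15 d replicate 2, 32 were, with a median of 0.30. The part of the myeloid and cortical markers in this count was not tested.

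At 15 d the largest difference was that of Col3a1, at 12.5 and 17.9 CPM in GS and 5.99 and 8.83 CPM in WT. It amounted to 1.04 ± 0.34 with an unadjusted 95% interval of 0.30 to 1.77, and did not pass (edgeR adjusted p = 0.969). Col1a2 had 0.65 ± 0.27 (interval 0.071 to 1.23) and Col1a1 0.54 ± 0.22 (0.074 to 1.00, edgeR adjusted p = 0.969 for both). In intact striatum Col6a1 had the lowest unadjusted p, at 105 and 65.8 CPM in GS and 167 and 135 CPM in WT (-0.82 ± 0.20, interval -1.25 to -0.39, edgeR adjusted p = 0.219). It passed when GS intact replicate 1 was left out (-1.20, edgeR adjusted p = 0.0447). These intervals leave room for differences of 2-fold and more in Col3a1, Col1a2 and Col6a1, so a missed threshold does not show equal levels.

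Whether the response to injury differed by genotype was tested as the GS change minus the WT change. No collagen passed at 6 h, 3 d or 15 d in edgeR, where 0.0106%, 0% and 0% of all genes did, nor in DESeq2 or limma-voom. The larger count of collagens called in GS at 15 d is therefore not shown to be a difference between genotypes. In edgeR 3, 5 and 5 collagens had an unadjusted p under 0.05, with no share of all genes at that threshold given here. At 15 d Col6a1 had 0.88 ± 0.28 (interval 0.28 to 1.48) and Col16a1 0.65 ± 0.23 (0.16 to 1.14), with an edgeR adjusted p of 0.881 for both. The value of 1.34 ± 0.58 for Col5a1 (0.085 to 2.58, edgeR adjusted p = 0.881) rested on WT intact replicate 1, without which it was 0.36 (0.998). At 6 h the Col16a1 libraries lay on opposite sides of intact in GS and WT, and the difference of 0.79 ± 0.23 did not pass (edgeR adjusted p = 0.334).

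**Figure D4:**
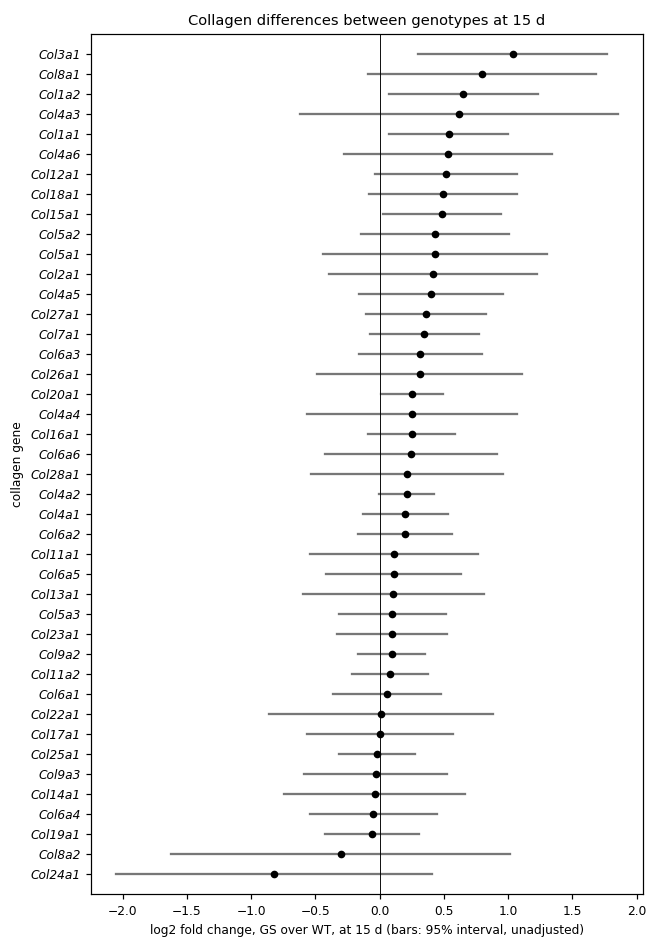
Log2 fold change of GS over WT at 15 d for each of the 42 collagen genes (points) with unadjusted 95% intervals (bars), sorted by value. Points lie right of 0 for 35 genes, from Col3a1 at 1.04 down, and no gene passed the adjusted threshold.

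Collagen chains are hydroxylated and folded in the endoplasmic reticulum, crosslinked outside the cell, sensed by receptors and cut by proteases. Genes of each step were listed from textbook knowledge. Beside the counts of these lists, 18.6% of all genes rose and 16.4% fell at 3 d in GS, and 19.4% and 17.6% at 15 d. In WT 14.7% rose and 12.7% fell at 3 d, and 14.2% and 11.2% at 15 d. The lists are short and no set test was run. Of 22 measured biosynthesis genes 11 rose and 4 fell at 3 d and 9 rose and 3 fell at 15 d in GS, and 11 rose and 3 fell at 3 d and 9 rose and 1 fell at 15 d in WT. The list medians were 0.42 at 3 d and 0.37 at 15 d in GS and 0.39 and 0.32 in WT. Serpinh1, the collagen chaperone Hsp47, stood at 27.5 and 27.3 CPM at 3 d and 12.1 and 11.4 CPM in intact striatum of GS, and at 22.0 and 32.7 CPM at 3 d and 7.30 and 8.22 CPM in intact striatum of WT. It rose at 3 d in GS (1.22 ± 0.23, edgeR adjusted p = 0.000853) and WT (1.82 ± 0.23, edgeR adjusted p = 0.000114). At 6 h it stood at 5.74 and 5.26 CPM in GS and fell there (-1.09 ± 0.24, edgeR adjusted p = 0.00824), a call lost without GS 6 h replicate 1 (-1.16, edgeR adjusted p = 0.0520) or replicate 2 (-1.03, 0.0701). P4ha3, a prolyl 4-hydroxylase subunit, rose at 15 d in GS (1.94 ± 0.23, edgeR adjusted p = 2.09e-05) and WT (1.68 ± 0.23, edgeR adjusted p = 0.000170). The prolyl 3-hydroxylase P3h2 rose at 15 d in GS (1.93 ± 0.25, edgeR adjusted p = 4.46e-05) and WT (1.67 ± 0.25, edgeR adjusted p = 0.000321). Crtap, another gene of this list, rose at 3 d in GS (1.66 ± 0.28, edgeR adjusted p = 0.000410) and WT (1.27 ± 0.28, edgeR adjusted p = 0.00400). The WT call of Crtap was lost with the cortical score (0.84, edgeR adjusted p = 0.123).

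Crosslinking genes rose in 3 of 4 cases at both times and in both genotypes, with medians of 1.90 at 3 d and 1.70 at 15 d in GS and 1.48 and 1.37 in WT. Lox, the lysyl oxidase that joins fibrils, had the largest change of the 4. Lox in GS stood at 0.188 and 0.376 CPM when intact, 1.39 and 0.879 at 6 h, 1.62 and 2.62 at 3 d, and 6.50 and 9.604 at 15 d. In WT, Lox stood at 0.249 and 0.225 CPM when intact, 0.784 and 1.03 at 6 h, 1.54 and 1.25 at 3 d, and 3.83 and 6.20 at 15 d. Its levels in injured libraries lay above intact at every time. Lox rose in GS at 6 h (2.01 ± 0.42, edgeR adjusted p = 0.00685), 3 d (2.89 ± 0.41, edgeR adjusted p = 0.000119) and 15 d (4.82 ± 0.41, edgeR adjusted p = 2.65e-06) and in WT at 6 h (1.92 ± 0.45, edgeR adjusted p = 0.0294), 3 d (2.54 ± 0.43, edgeR adjusted p = 0.000820) and 15 d (4.38 ± 0.42, edgeR adjusted p = 1.63e-05). At 6 h the calls were lost in GS without GS intact replicate 1 (1.59, edgeR adjusted p = 0.0709) or GS 6 h replicate 1 (1.63, 0.0762), and in WT without any of its 4 libraries (1.71 to 2.10, 0.0738 to 0.209). Loxl2 rose at 3 d in GS (3.34 ± 0.44, edgeR adjusted p = 6.29e-05) and WT (2.18 ± 0.45, edgeR adjusted p = 0.00271), and Loxl3 rose at 15 d in GS (0.93 ± 0.19, edgeR adjusted p = 0.00153) and WT (0.91 ± 0.19, edgeR adjusted p = 0.00342). The WT call of Loxl3 was lost without WT 15 d replicate 2 (0.65, edgeR adjusted p = 0.0597), and that of Loxl2 without the 3 libraries highest in cortical markers (1.75, 0.0729).

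Of 8 receptors 4 rose at 3 d and 6 at 15 d in GS, and 4 and 5 in WT, with medians of 0.63 and 0.60 in GS and 0.71 and 0.52 in WT. Lair1, an inhibitory collagen receptor of leukocytes, rose at 15 d in GS (1.56 ± 0.19, edgeR adjusted p = 3.74e-05) and WT (1.30 ± 0.19, edgeR adjusted p = 0.000339). Ddr2, a kinase that binds fibrillar collagen, rose at 15 d in GS (1.52 ± 0.29, edgeR adjusted p = 0.00107) and WT (1.33 ± 0.30, edgeR adjusted p = 0.00507), the WT call being lost without WT intact replicate 2 (1.14, edgeR adjusted p = 0.0526) or WT 15 d replicate 2 (1.00, 0.0728). The integrin subunit Itgb1 rose at 3 d in GS (1.12 ± 0.14, edgeR adjusted p = 4.02e-05) and WT (0.86 ± 0.14, edgeR adjusted p = 0.000508). Itga10 rose at 3 d in WT (0.77 ± 0.22, edgeR adjusted p = 0.0172), a call lost without either WT intact library (0.71 and 0.82, 0.114 and 0.0553) or WT 3 d replicate 1 (0.68, 0.0856), and fell at 6 h in GS (-0.98 ± 0.22, edgeR adjusted p = 0.0112), a call lost without GS intact replicate 1 (-0.89, 0.0682) or either GS 6 h library (-0.88 and -1.08, 0.102 and 0.0504).

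Of 7 breakdown genes 5 rose at 3 d and at 15 d in GS, and 3 at 3 d and 5 at 15 d in WT, with medians of 0.67 and 0.79 in GS and 0.65 and 0.57 in WT. Mmp2, a gelatinase, rose at 15 d in GS (2.62 ± 0.45, edgeR adjusted p = 0.000415) and WT (2.60 ± 0.46, edgeR adjusted p = 0.00110). Mmp14, the membrane protease that activates it, rose at 3 d in GS (1.39 ± 0.21, edgeR adjusted p = 0.000211) and WT (1.16 ± 0.21, edgeR adjusted p = 0.00129, or 0.69 without WT 3 d replicate 2). The collagen uptake receptor Mrc2 rose at 15 d in GS (1.79 ± 0.31, edgeR adjusted p = 0.000416) and WT (1.16 ± 0.30, edgeR adjusted p = 0.0122), the WT call being lost without WT intact replicate 2 (0.83, edgeR adjusted p = 0.117) or WT 15 d replicate 2 (0.69, 0.183). Timp2, an inhibitor of these proteases, rose at 15 d in GS (0.62 ± 0.077, edgeR adjusted p = 3.63e-05) and WT (0.54 ± 0.077, edgeR adjusted p = 0.000265). Of 6 myeloid markers 6 rose in GS at 3 d and 15 d, and 5 at 3 d and 6 at 15 d in WT. Their summed level was 591 to 769 CPM at 3 d, 875 to 1291 CPM at 15 d and 163 to 164 CPM in intact striatum of GS, and 373 to 577 CPM at 3 d, 504 to 882 CPM at 15 d and 155 to 159.8 CPM in intact striatum of WT. Their part in the rises of Lair1 and the proteases was not tested.

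**Figure D5:**
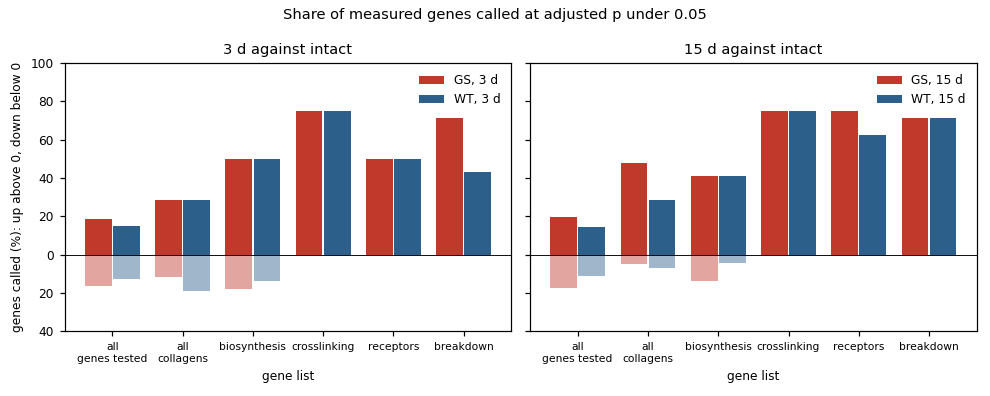
Share of measured genes called at an edgeR adjusted p under 0.05 (%), up above 0 and down below 0 in paler bars, for all genes tested, the 42 collagens and 4 lists of collagen handling genes, at 3 d (left) and 15 d (right) against intact striatum, GS in red and WT in blue. Collagens called up are 28.6% in both genotypes at 3 d and 47.6% in GS and 28.6% in WT at 15 d, beside 14.2 to 19.4% of all genes.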

How the data were processed

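RNA from 16 mouse striatum samples was made into libraries with a TruSeq RNA kit after RNeasy extraction, per the labels' protocols. The authors deposited raw read counts per gene in 1 table, with no normalization per the file headers. FastQC 0.11.7 and mm10 are named, per the submitters' processing notes. The aligner, the counter and strand settings were not given in the sources used here. Columns headed NT were taken as WT, the other genotype carrying the GS name. Totals were 49220578 to 63948110 counts per library.

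The counts were filtered (edgeR filterByExpr, which removed 644 of 19457 genes), scaled by TMM and fitted as 8 groups with edgeR 4.0.16 (glmQLFit and glmQLFTest, R 4.3.3), with Benjamini-Hochberg adjustment over 18813 genes and a threshold of 0.05. All 16 libraries shared 1 estimate of the spread, with 8 residual degrees of freedom. The standard error is the log2 fold change over the square root of F, and intervals are unadjusted 95% intervals. DESeq2 1.42.0 and limma-voom (limma 3.58.1) served as alternatives. Only the edgeR fit is described here as tested on simulated data. Values in every library are given for up to 3 collagens per class, those with the largest change among genes that passed, averaged at least 1 CPM and had groups without overlap, or else the gene with the highest mean, for all chain partners and, of each other list, fold changes for up to 4 genes that passed. The labels call the replicates biological and nothing ties them to separate animals, so p-values measure only the spread between these samples, which may be technical. Reads of overlapping genes cannot be told apart without strand. The members, lists and tests were chosen with earlier results of these data known. Correlations used log2(CPM + 1).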

Additional observations from a re-analysis of the deposited data

Results flagged for a closer look

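In 7 cases a collagen differed between 15 d and 3 d after injury of the same genotype by an adjusted test of the difference, in edgeR. In GS these were Col13a1 at 1.68 (adjusted p = 0.0308), Col6a5 at 1.32 (adjusted p = 0.0209), Col15a1 at 0.98 (adjusted p = 0.0352), Col11a2 at 0.64 (adjusted p = 0.0338) and Col9a2 at 0.61 (adjusted p = 0.0241), as log2 fold changes of 15 d over 3 d. In WT they were Col9a3 at 1.12 (adjusted p = 0.0357) and Col11a2 at 0.76 (adjusted p = 0.0118) on the same scale. Both 15 d libraries lay above both 3 d libraries in each case, and each call was lost without some library.

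For 3 collagens each GS library at 6 h lay on 1 side of both intact GS libraries while each WT library lay on the other side of the intact WT libraries. The difference of the log2 fold changes, GS minus WT, was -0.45 for Col1a1 (edgeR adjusted p = 0.720), -0.71 for Col1a2 (edgeR adjusted p = 0.633) and 0.79 for Col16a1 (edgeR adjusted p = 0.334). The difference did not pass for any of these 3. With 2 libraries a group such a pattern can readily arise by chance. How many of all genes show it was not counted, so no result is read from the count of 3.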

How the results depend on the processing

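Of 86 collagen calls in all comparisons, none changed direction under any setting run, 40 were kept without each library in turn and 46 were lost without some library. Of the 86, RLE size factors kept 84, DESeq2 and limma-voom 81 each, no low count filter 79, the comparison's own groups 68, leaving out the 3 libraries highest in cortical markers 68 and a cortical score 58. At 6 h in WT, where 1 collagen was called, DESeq2 and the comparison's own groups called 3, leaving out those 3 libraries 0 and the cortical score 2. At 3 d in WT, where 20 were called, the comparison's own groups gave 11, leaving out those 3 libraries 12 and the cortical score 4. At 6 h in GS, where 4 were called, limma-voom gave 2 and the comparison's own groups 7. For 15 d against 3 d in WT, where 2 were called, no filter gave 1, the comparison's own groups 0 and leaving out the 3 libraries 1. Leaving out those 3 libraries leaves 1 library in each of WT intact, WT 6 h and WT 15 d. The share of all genes called under each setting is not given here, and the cause of these differences was not tested.

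Leaving out each library in turn gave 0 to 6 calls at 6 h, 12 to 18 at 3 d (lowest without GS 3 d replicate 2), 14 to 24 at 15 d (lowest without GS intact replicate 2) and 0 to 7 at 15 d against 3 d in GS. In WT it gave 0 to 3 at 6 h, 10 to 21 at 3 d (lowest without WT intact replicate 1 or WT 3 d replicate 2), 11 to 17 at 15 d and 0 to 6 at 15 d against 3 d. Between genotypes it gave 0 to 1 in intact striatum. With 1 library left in a group, it is assumed to vary like the other groups.

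The shared replicate numbers were treated as names: pairing asked for a correlation of deviations over 0.1 in every pair of groups, and over 28 pairs it ran from -0.0921 to 0.165, with 3 over 0.1, those among WT 3 d, WT 15 d and GS 15 d. With the replicate number as a block, 83 of 86 calls were kept, and the counts were 19 in WT at 3 d and 22 in GS at 15 d, of which 20 were shared, with the other counts as before. With 2 libraries a group, collagens under 1 CPM were measured with low precision.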
